A study of Mus musculus with 14 samples.

Results

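GABAergic neurons release the inhibitory transmitter GABA, and those of the forebrain arise in the subpallium, below the cortex. The genes described here are 9 that mark this lineage: the transcription factors Gsx2, Dlx1, Dlx2, Dlx5, Dlx6 and Lhx6, the GABA-synthesizing enzymes Gad1 and Gad2, and the vesicular GABA transporter Slc32a1. They were chosen by symbol, and every probe set annotated to exactly 1 of these symbols was taken, which gave 15 of the 45037 probe sets on the array. Of the 9 genes, 7 lay above the dim level of 4 on the log2 scale on at least 3 arrays and were tested, among 10295 genes tested of 18193 measured. Dlx6 and Gsx2 lay below that level on every array.

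The cells were neocortical progenitors and their progeny from CD1 mouse embryos, sorted by FACS from cortex that had been electroporated in utero at E14.5 with an expression vector. The vector was CtrlGFP, a control construct, or Fezf2GFP, which was made to overexpress Fezf2, a zinc-finger factor that specifies corticospinal and related subcortically projecting neurons. Cells were sorted 24 h later, with 3 arrays for each vector, or 48 h later, with 4 arrays for each vector, 14 arrays in all. All groups shared strain, stage, surgery, sorting and a small-sample amplification of the RNA. The sources used here give neither the promoter of the vectors nor the number of embryos behind an array, so the p-values reflect only the spread among these samples, some of which may be technical.

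Gsx2 is a homeodomain factor of subpallial progenitors and lies upstream of Dlx1 and Dlx2, which in turn drive differentiation and migration of GABAergic neurons and the expression of Dlx5, Dlx6 and Gad genes. Lhx6, a LIM homeodomain factor, marks interneurons of the medial ganglionic eminence that travel tangentially into the cortex. Cortical projection neurons, which arise from the electroporated cortical wall, use glutamate instead.

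Array medians lay between 3.26 and 3.50, and the correlation between arrays of the same group was 0.942 to 0.993 over the tested genes. The Fezf2 probe set went against the labels. Its level was 11.30 ± 0.42 (SD, n = 3) on the CtrlGFP arrays and 9.44 ± 0.11 (SD, n = 3) on the arrays labelled Fezf2GFP at 24 h, a log2 difference of -1.86 (SE 0.38, adjusted p = 0.0324 in limma). At 48 h the log2 difference was -0.82 (SE 0.33, adjusted p = 0.239 in limma). Whether this probe set reads the transcript made from the vector was not tested. "Fezf2GFP arrays" below therefore means arrays so labelled, and every direction for the vector rests on those labels. Neurod6, a gene of cortical projection neurons, was bright and lay between 14.56 and 15.07 on all 14 arrays. In a list of 13 genes of the pallial glutamatergic lineage, which includes Neurod6, 12 were tested. The other, Slc17a7, lay below a log2 level of 4 on every array.

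The members fell into 3 kinds of signal. Gad1, Dlx1, Dlx2, Lhx6 and Slc32a1 varied widely between arrays, Gad2 and Dlx5 stayed close to the dim level, and Dlx6 and Gsx2 showed no signal above it. Dlx6 read 2.02 to 2.09 and Gsx2 1.86 to 1.96 over the 14 arrays, so neither has a measured level or fold here. Gad1, Gad2 and Lhx6 each had 1 further probe set and Slc32a1 had 3, and none of these 6 rose above the dim level on any array, including 2.29 to 2.39 for the second Gad1 probe set. All results below come from the brighter probe set of each gene, and the further probe sets stayed flat.

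**Figure D1:**
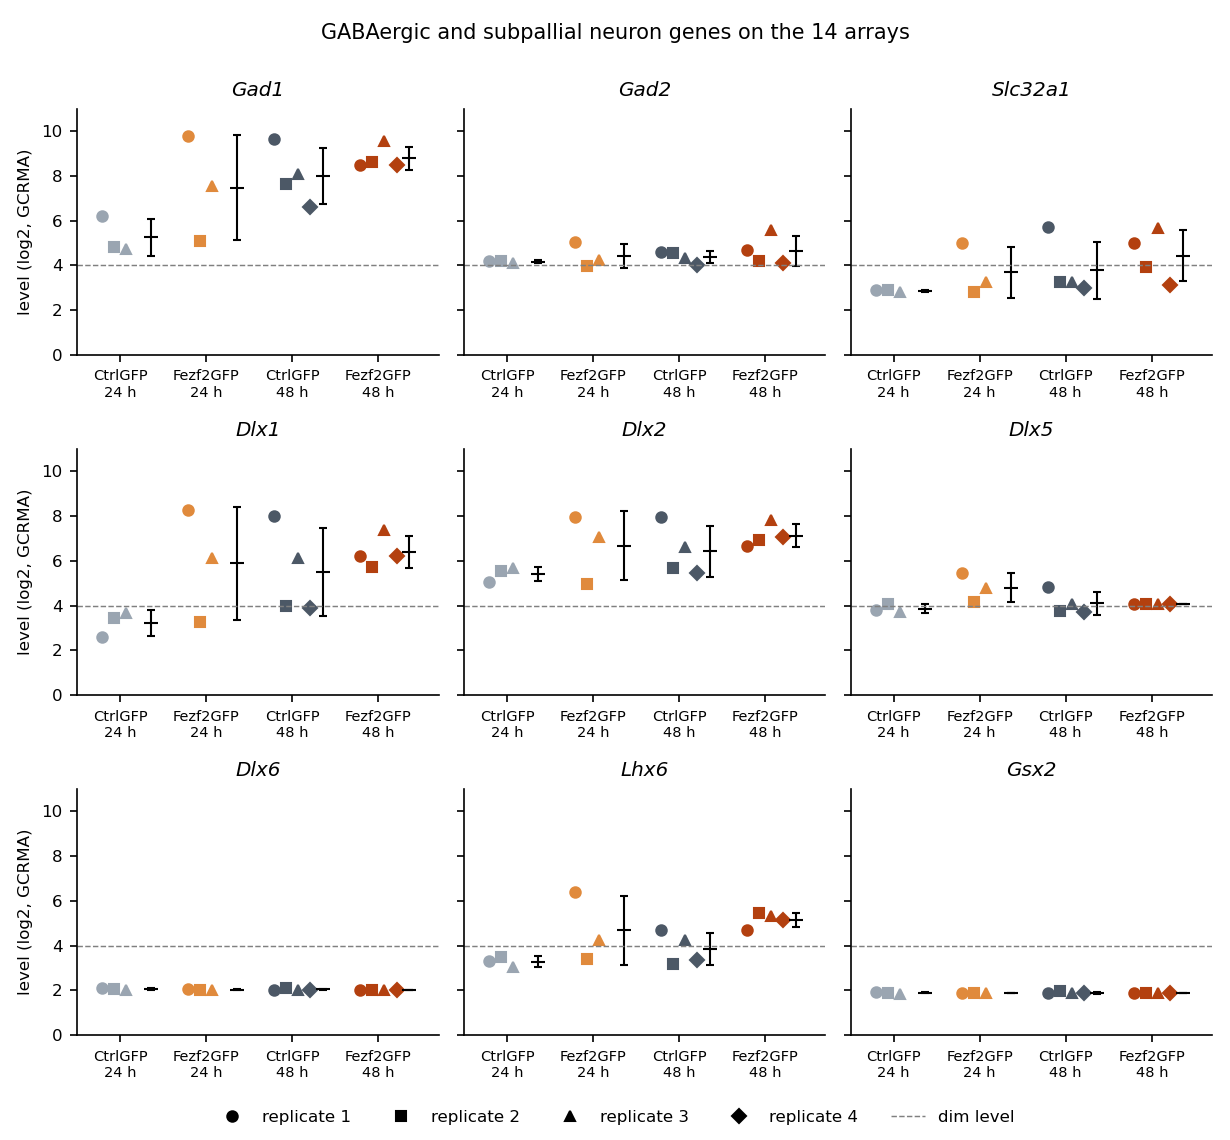
Level (log2, deposited values) of each of the 9 genes on every array, by group, with 1 point per array, the mean ± SD of each group beside the points, and a dashed line at the dim level of 4. Gad1 spans 4.72 to 9.77 and Dlx1 2.58 to 8.27, while Dlx6 and Gsx2 lie flat below the dim level.

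Among the transcription factors, Dlx1 and Dlx2 are neighbours on chromosome 2 that encode related homeodomain proteins. Dlx1 read 2.58, 3.42 and 3.68 on the CtrlGFP arrays of 24 h and 8.27, 3.24 and 6.14 on the Fezf2GFP arrays of 24 h, in the order of replicates 1 to 3. At 48 h it read 7.99, 3.97, 6.14 and 3.90 with CtrlGFP and 6.20, 5.72, 7.39 and 6.22 with Fezf2GFP. All 24 h control arrays lay below the dim level, 1 Fezf2GFP array of 24 h lay within their range, and the single highest arrays of 24 h and 48 h carried different vectors. Dlx2 was above the dim level on all 14 arrays. It read 5.06, 5.53 and 5.66 with CtrlGFP and 7.98, 4.98 and 7.05 with Fezf2GFP at 24 h. At 48 h the values were 7.95, 5.66, 6.62 and 5.45 with CtrlGFP and 6.64, 6.95, 7.84 and 7.08 with Fezf2GFP. Its highest array was that of Dlx1 in all 4 groups and its lowest in 3 of 4, with Fezf2GFP at 48 h the exception, and the vector groups overlapped at both times.

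Lhx6 read 3.32, 3.50 and 3.02 on the CtrlGFP arrays and 6.39, 3.40 and 4.24 on the Fezf2GFP arrays of 24 h. At 48 h it read 4.69, 3.20, 4.25 and 3.34 with CtrlGFP and 4.72, 5.45, 5.32 and 5.14 with Fezf2GFP. Every Fezf2GFP array of 48 h stood above every control array of 48 h, although the lowest of the first and the highest of the second lay close together. Dlx5, a homeodomain factor downstream of Dlx1 and Dlx2, read 3.79, 4.08 and 3.71 with CtrlGFP and 5.44, 4.16 and 4.78 with Fezf2GFP at 24 h. At 48 h it read 4.83, 3.76, 4.08 and 3.73 with CtrlGFP and 4.07, 4.06, 4.07 and 4.08 with Fezf2GFP. The groups did not overlap at 24 h, whereas at 48 h the Fezf2GFP arrays lay inside the control range. On 6 of the 14 arrays the Dlx5 value fell in the narrow span from 4.06 to 4.08, including all Fezf2GFP arrays of 48 h, so the probe set returned nearly 1 value there.

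Promoter windows of RefSeq genes (build GRCm38.p6, 250 bases before to 50 after the start) were read for the members that moved together most closely, to show what their upstream sequence holds. Entries were found for 7 of the 9 genes, in 9 windows, because Lhx6 has 3; Dlx5 and Dlx6 have none in the table. Capitals mark TAAT or ATTA, the core recognised by many homeodomain proteins, which are the same letters read on opposite strands, and CAGCTG, an E-box that reads the same on both strands. The Gad1 window is chr2:70561879-70562178 (plus strand), the Dlx1 window chr2:71529195-71529494 (plus strand) and the Dlx2 window chr2:71546705-71547004 (minus strand). The Lhx6 windows shown are chr2:36104011-36104310 (window A) and chr2:36105359-36105658 (window B), both on the minus strand.
Gad1: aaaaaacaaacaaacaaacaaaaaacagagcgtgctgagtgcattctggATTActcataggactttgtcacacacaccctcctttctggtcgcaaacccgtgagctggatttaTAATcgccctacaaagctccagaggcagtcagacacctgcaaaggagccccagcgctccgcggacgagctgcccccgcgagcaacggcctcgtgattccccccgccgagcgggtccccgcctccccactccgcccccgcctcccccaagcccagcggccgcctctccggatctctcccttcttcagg
Dlx1: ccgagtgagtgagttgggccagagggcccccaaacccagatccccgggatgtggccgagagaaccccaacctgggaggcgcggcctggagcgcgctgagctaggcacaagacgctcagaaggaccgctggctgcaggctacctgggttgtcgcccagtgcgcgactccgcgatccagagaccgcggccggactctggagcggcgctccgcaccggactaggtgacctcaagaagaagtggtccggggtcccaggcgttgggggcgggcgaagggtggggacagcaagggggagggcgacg
Dlx2: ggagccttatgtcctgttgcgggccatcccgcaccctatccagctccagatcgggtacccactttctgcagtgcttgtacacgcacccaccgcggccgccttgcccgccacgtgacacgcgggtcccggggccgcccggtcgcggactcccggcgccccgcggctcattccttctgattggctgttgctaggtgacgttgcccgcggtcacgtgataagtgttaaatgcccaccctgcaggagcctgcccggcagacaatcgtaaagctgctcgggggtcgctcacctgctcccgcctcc
Lhx6 window A: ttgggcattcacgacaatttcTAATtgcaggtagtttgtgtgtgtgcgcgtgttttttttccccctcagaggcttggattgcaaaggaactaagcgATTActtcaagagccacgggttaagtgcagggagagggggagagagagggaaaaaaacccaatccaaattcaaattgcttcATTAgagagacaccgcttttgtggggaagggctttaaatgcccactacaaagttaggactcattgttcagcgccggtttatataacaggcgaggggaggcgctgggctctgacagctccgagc
Lhx6 window B: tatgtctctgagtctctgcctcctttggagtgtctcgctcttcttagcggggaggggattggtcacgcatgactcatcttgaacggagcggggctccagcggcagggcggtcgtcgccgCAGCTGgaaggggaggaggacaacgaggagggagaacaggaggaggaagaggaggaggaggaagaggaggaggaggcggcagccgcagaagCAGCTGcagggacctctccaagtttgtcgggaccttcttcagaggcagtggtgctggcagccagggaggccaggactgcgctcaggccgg

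In these windows Gad1 held 2 matches to TAAT or ATTA and Lhx6 window A held 3, while the Dlx1 and Dlx2 windows held none. Over all members, 3 of 9 windows had such a match, against 58.0% of 32851 promoter windows. The longer site TAATTA, which contains both short forms, occurred in 0 of 9 windows, against 5.29% of all windows. CAGCTG occurred in 1 of 9 windows, with 2 matches in Lhx6 window B, against 16.3% of all windows. These counts describe letters in a fixed window and do not speak to binding.

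Gad1 and Gad2 encode the enzymes that make GABA from glutamate. Gad1 read 6.22, 4.81 and 4.72 with CtrlGFP and 9.77, 5.09 and 7.57 with Fezf2GFP at 24 h. At 48 h it read 9.63, 7.66, 8.08 and 6.63 with CtrlGFP and 8.50, 8.62, 9.55 and 8.49 with Fezf2GFP. The 24 h groups overlapped through Fezf2GFP replicate 2, and the 48 h groups through CtrlGFP replicate 1, which was the highest array of that time. Gad2 read 4.20, 4.20 and 4.10 with CtrlGFP and 5.03, 3.98 and 4.26 with Fezf2GFP at 24 h. At 48 h it read 4.59, 4.55, 4.33 and 4.01 with CtrlGFP and 4.68, 4.21, 5.57 and 4.09 with Fezf2GFP. Only Fezf2GFP replicate 1 of 24 h and Fezf2GFP replicate 3 of 48 h stood above 5 for Gad2.

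Slc32a1 encodes the transporter that loads GABA into synaptic vesicles. It read 2.89, 2.91 and 2.82 with CtrlGFP and 5.0, 2.81 and 3.27 with Fezf2GFP at 24 h. At 48 h it read 5.70, 3.24, 3.24 and 2.98 with CtrlGFP and 5.02, 3.93, 5.69 and 3.12 with Fezf2GFP. It exceeded the dim level on 4 of 14 arrays, 3 of them with Fezf2GFP, and these included the array with the highest Gad1 and Dlx1 of 3 groups.

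Whether the vector changed these genes was tested at each time and over both times. At 24 h, 0 of the 7 tested members passed at an adjusted p of 0.05 in limma over all 10295 genes, where 1.06% of all genes passed, and 4 had an unadjusted p below 0.05, against 8.85% of all genes. The log2 differences, Fezf2GFP minus CtrlGFP, were above 0 for 7 of 7, against 56.4% of all genes, with the members sharing the same arrays. Their median was 1.25, against 0.06 for all genes. The largest was that of Dlx1, 2.66 (SE 1.17, 95% interval 0.12 to 5.19, adjusted p = 0.522 in limma). All control arrays of Dlx1 lay below the dim level. Its Fezf2GFP mean, with 2 arrays above that level, stood 3.69-fold over it. Gad1 differed by 2.22 (SE 0.96, 95% interval 0.14 to 4.31, adjusted p = 0.508 in limma). Lhx6 differed by 1.40 (SE 0.60, 95% interval 0.10 to 2.69, adjusted p = 0.505 in limma). Its control arrays also lay below the dim level, and its Fezf2GFP mean stood 1.60-fold over it. Dlx5, the 1 member whose 24 h groups did not overlap, differed by 0.93 (SE 0.32, adjusted p = 0.295 in limma), where 19.6% of all genes had groups that did not overlap. For Dlx2 the difference was 1.25 (SE 0.71, adjusted p = 0.683 in limma) and for Gad2 0.26 (SE 0.35, adjusted p = 0.823 in limma). Slc32a1 has no fold at 24 h, because its means of 2.87 with CtrlGFP and 3.69 with Fezf2GFP both lay below the dim level (adjusted p = 0.752 in limma). These comparisons are over whole sorted samples, in which more cells of a type and more RNA per cell cannot be told apart.

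Single arrays set the size of the 24 h differences. Without Fezf2GFP replicate 1, the highest array of its group for 7 of 7 members, the log2 difference was 1.08 for Gad1, 1.46 for Dlx1, 0.60 for Dlx2 and 0.54 for Lhx6. Without Fezf2GFP replicate 2, the lowest for 7 of 7, the same genes stood at 3.41, 3.98, 2.10 and 2.03, and the lowest adjusted p among the members was 0.0994 (Gad1, limma). No member passed at 24 h or at 48 h under any of the 25 alternative settings run.

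At 48 h, 0 of the 7 tested members passed in limma, where 3.13% of all genes passed, and 1 had an unadjusted p below 0.05, against 15.2% of all genes. Lhx6 had the largest difference, 1.29 (SE 0.52, 95% interval 0.17 to 2.41, adjusted p = 0.239 in limma), and was the 1 member whose groups did not overlap, as those of 9.07% of all genes did not. Dlx1 differed by 0.88 (SE 1.01), Gad1 by 0.79 (SE 0.83), Dlx2 by 0.71 (SE 0.62) and Slc32a1, above the dim level on 1 control array and 2 Fezf2GFP arrays, by 0.65 (SE 0.67), with adjusted p in limma of 0.659 to 0.756. Gad2 differed by 0.26 (SE 0.31, adjusted p = 0.756 in limma) and Dlx5 by -0.03 (SE 0.28, adjusted p = 0.975 in limma). At 48 h the difference was above 0 for 6 of 7 members, against 57.3% of all genes. The 48 h median over the members was 0.71, against 0.06 for all genes. Without CtrlGFP replicate 1, the highest control array for 7 of 7 members, the differences were 1.71 for Dlx1, 1.33 for Gad1, 1.22 for Dlx2 and 1.29 for Slc32a1, none of which passed. The control arrays then left for Slc32a1 all lay below the dim level, so 1.29 is the fit's value, not a measured fold. Other left-out arrays lowered these differences, to as little as 0.35 for Dlx1, 0.33 for Gad1, 0.38 for Dlx2 and 0.23 for Slc32a1.

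**Figure D2:**
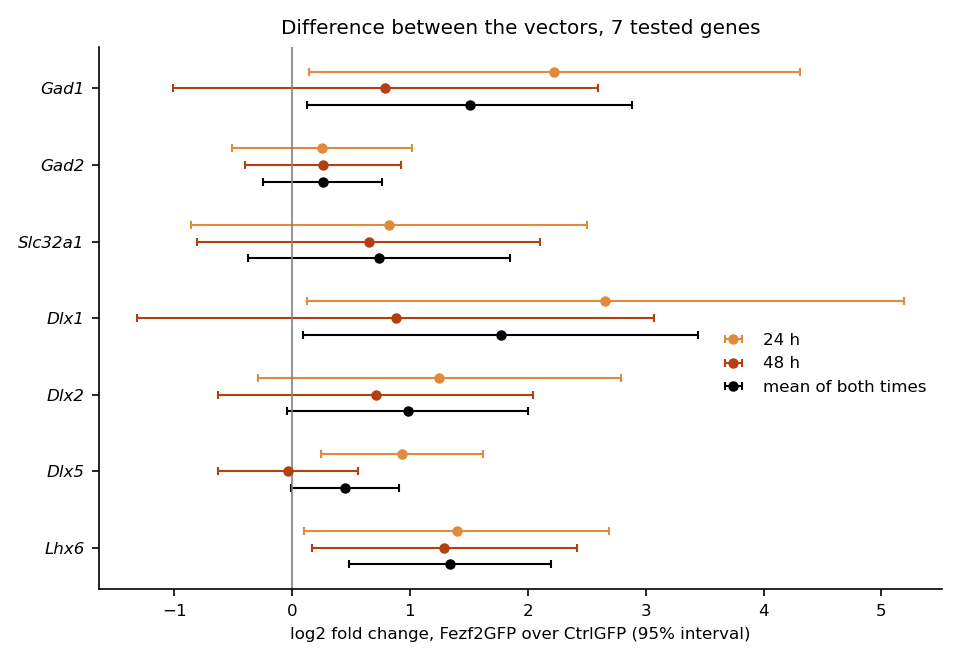
Log2 difference between Fezf2GFP and CtrlGFP for the 7 tested genes at 24 h, at 48 h and as the mean of both times, with points for limma's estimates (not measured folds where a group lay below the dim level) and bars for 95% intervals. At 48 h 6 of the 7 intervals include 0, and at 24 h those of Gad1, Dlx1, Dlx5 and Lhx6 do not, before adjustment over all genes.

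Averaged over both times, 0 of the 7 passed, where 4.79% of all genes passed, and 3 had an unadjusted p below 0.05, against 18.1% of all genes. The mean was above 0 for 7 of 7, against 59.2% of all genes. Lhx6 came closest at 1.34 (SE 0.40, 95% interval 0.49 to 2.20, adjusted p = 0.0795 in limma). Dlx1 stood at 1.77 (SE 0.77, adjusted p = 0.246 in limma), Gad1 at 1.51 (SE 0.64, adjusted p = 0.228 in limma) and Dlx2 at 0.98 (SE 0.47, adjusted p = 0.294 in limma). Without Fezf2GFP 24 h replicate 2, the lowest array of its group for 7 of 7 members, 2 members passed. These were Lhx6 at 1.66 (adjusted p = 0.0236 in limma) and Gad1 at 2.10 (adjusted p = 0.0454 in limma). Without replicate 1, the highest of that group, Lhx6 stood at 0.92 (adjusted p = 0.117 in limma) and Gad1 at 0.93 (adjusted p = 0.470 in limma). Over the fits without 1 array, 290 to 505 of the 10295 genes passed. Across the alternatives run, the adjusted p of this mean ranged from 0.0236 to 0.194 for Lhx6 and from 0.0454 to 0.470 for Gad1. The difference between the 48 h and 24 h effects passed for 0 of 7 members, where 0.0971% of all genes passed, and for 1 it had an unadjusted p below 0.05, against 4.94% of all genes. That gene was Dlx5, at -0.96 (SE 0.42, adjusted p = 0.989 in limma).

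Time was compared within each vector. In CtrlGFP cells from 24 h to 48 h, 0 of 7 members passed, where 12.6% of all genes passed, and 1 had an unadjusted p below 0.05, against 24.1% of all genes. That was Gad1, whose 48 h arrays all stood above its 24 h arrays, with a difference of 2.75 (SE 0.90, 95% interval 0.80 to 4.70, adjusted p = 0.0652 in limma). Gad1 was called under 4 of its 25 alternatives, including the fit with the replicate number as a block (3.03, adjusted p = 0.0260 in limma). Dlx1 differed by 2.27 (SE 1.10, 95% interval -0.10 to 4.64, adjusted p = 0.231 in limma). Its 48 h mean, with 2 arrays above the dim level, stood 2.83-fold over that level. Slc32a1 has no fold here, with means of 2.87 and 3.79, both below the dim level (adjusted p = 0.521 in limma). For Gad1, Dlx1 and Slc32a1 the groups did not overlap, as was so for 22.7% of all genes. Only 1 array of 48 h for Slc32a1 and 2 for Dlx1 exceeded the dim level. The rest of that separation lay among values below it. Without CtrlGFP 48 h replicate 1 the differences were 2.20 for Gad1 and 1.44 for Dlx1.

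In Fezf2GFP cells from 24 h to 48 h, 0 of 7 passed, where 12.1% of all genes passed, and 1 had an unadjusted p below 0.05, against 24.4% of all genes. The gene was Dlx5, at -0.72 (SE 0.30, adjusted p = 0.148 in limma), whose 48 h arrays all lay below its 24 h arrays, as the groups of 26.2% of all genes did not overlap in either direction. Gad1 differed by 1.31 (SE 0.90, adjusted p = 0.426 in limma) and Slc32a1, above the dim level on 1 array of 24 h and 2 of 48 h, by 0.75 (SE 0.73). Without Fezf2GFP 24 h replicate 2 these were 0.12 and 0.31, and without replicate 1 they were 2.46 and 1.40. With replicate 1 left out, the other 24 h arrays of Slc32a1 lay below the dim level, so 1.40 is not a measured fold. The differences of Dlx1 (0.50, SE 1.10) and Dlx2 (0.46, SE 0.67) turned negative without replicate 2, at -0.82 and -0.38, and were 1.69 and 1.11 without replicate 1.

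Arrays of the same group differed widely in these genes. The pooled within-group SD was 1.62 for Dlx1, 1.33 for Gad1, 1.07 for Slc32a1, 0.98 for Dlx2 and 0.82 for Lhx6, against a median of 0.35 over all tested genes. Only Gad2 (0.46) and Dlx5 (0.41) were near that median. Of all tested genes, 99.8% had a smaller SD than Dlx1, 99.4% than Gad1 and 95.1% than Lhx6. Within Fezf2GFP at 24 h, replicates 1 and 2 were 25.5-fold apart for Gad1, at least 19.3-fold for Dlx1 and at least 5.23-fold for Lhx6, the bounds being against the dim level where replicate 2 lay below it. Within CtrlGFP at 48 h, replicate 1 and the lowest array were at least 15.9-fold apart for Dlx1 and 8.0-fold for Gad1. The 24 h control arrays were the tightest for Dlx2, which spanned 1.52-fold there.

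The deviations went together. CtrlGFP 48 h replicate 1 and Fezf2GFP 24 h replicate 1 were each the highest array of their group for 7 of 7 members, and Fezf2GFP 48 h replicate 3 for 5 of 7. Fezf2GFP 24 h replicate 2 was the lowest of its group for 7 of 7 and CtrlGFP 48 h replicate 4 for 6 of 7. Elsewhere the order was less uniform. Among the 24 h control arrays, replicate 2 was highest for 4 members, replicate 3 for 2 and replicate 1 for 1, while replicate 3 was lowest for 5 of 7 and replicate 1 for 2. In Fezf2GFP at 48 h the lowest array was replicate 4 for 3 members, replicate 1 for 2 and replicate 2 for 2.

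**Figure D3:**
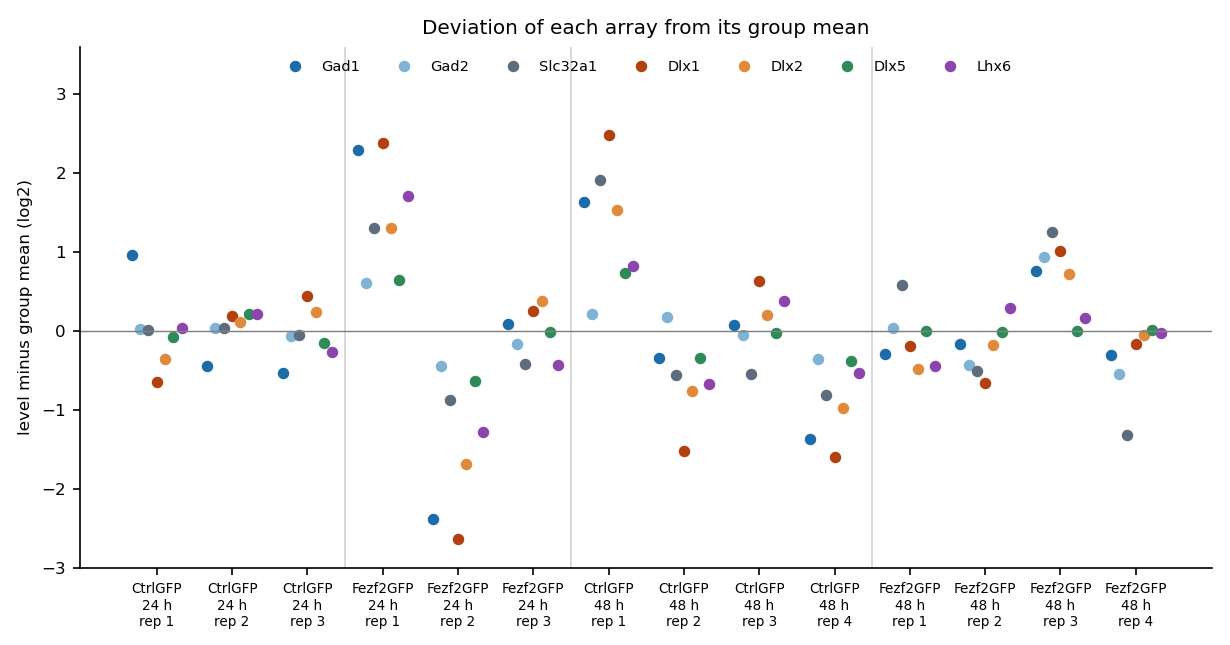
Deviation of each array from its group mean (log2) for the 7 tested genes, with 1 colour per gene and 14 arrays on the horizontal axis. All 7 points lie above 0 on Fezf2GFP 24 h replicate 1 and CtrlGFP 48 h replicate 1 and below 0 on Fezf2GFP 24 h replicate 2.

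Correlations of these deviations over the 14 arrays were computed for all 21 pairs of tested members, with exact permutation of arrays within groups (20736 arrangements, two-sided) and Benjamini-Hochberg adjustment over the pairs. Dlx1 and Dlx2 were the closest pair, with Pearson's r of 0.982 (exact permutation p = 0.000434, adjusted 0.00912) and Spearman's rho of 0.965 (exact permutation p = 0.000289, adjusted 0.00608). Without the arrays farthest from the median r was 0.965. Over the 21 pairs r ranged from 0.486 to 0.982 with a median of 0.808. For r, 19 pairs passed after adjustment, and the exceptions were Gad2 with Dlx5 and Gad2 with Lhx6. Over all tested genes the median r with a member lay between -0.054 (Gad2) and 0.084 (Dlx1). The share of other tested genes with an r as high as a pair's ranged from 0%, for Dlx1 with Dlx2, to 7.29%, for Gad2 with Dlx5. For rho only 2 pairs passed, Dlx1 with Dlx2 and Gad2 with Slc32a1, although 15 had an unadjusted exact permutation p below 0.05. Without the farthest 2 arrays r ranged from 0.291, for Slc32a1 with Lhx6, to 0.965.

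The deviations of Dlx2 were then set against those of 85 other measures (other genes of the lists, cell type markers, Fezf2 and the array median), a comparison added after the values were seen. After adjustment 0 of the 85 passed, for r or rho, and 19 had an unadjusted exact permutation p below 0.05 for r and 9 for rho. The highest r were those of Isl1, a factor of striatal projection neurons (0.881), and of Maf, a factor of interneurons from the medial ganglionic eminence (0.857). The receptor gene Met followed (0.845), with levels of 3.59 to 5.55 over the 14 arrays, close to the dim level. Without the 2 farthest arrays r was 0.802 for Isl1, 0.795 for Maf and 0.648 for Met. Fezf2 stood at an r of 0.183 (exact permutation p = 0.478) and the array median at -0.174 (exact permutation p = 0.551). Among the 12 tested genes of the pallial glutamatergic lineage r lay between -0.322 and 0.290. Bcl11b, a factor of corticofugal projection neurons that striatal neurons also express, stood at an r of 0.521 (exact permutation p = 0.00415) and a rho of 0.653 (exact permutation p = 0.00738). Cacna2d2, from the Cajal-Retzius list, stood at an r of 0.675 (exact permutation p = 0.00897), and Rgs5, a pericyte gene, at 0.575 (exact permutation p = 0.0984).

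**Figure D4:**
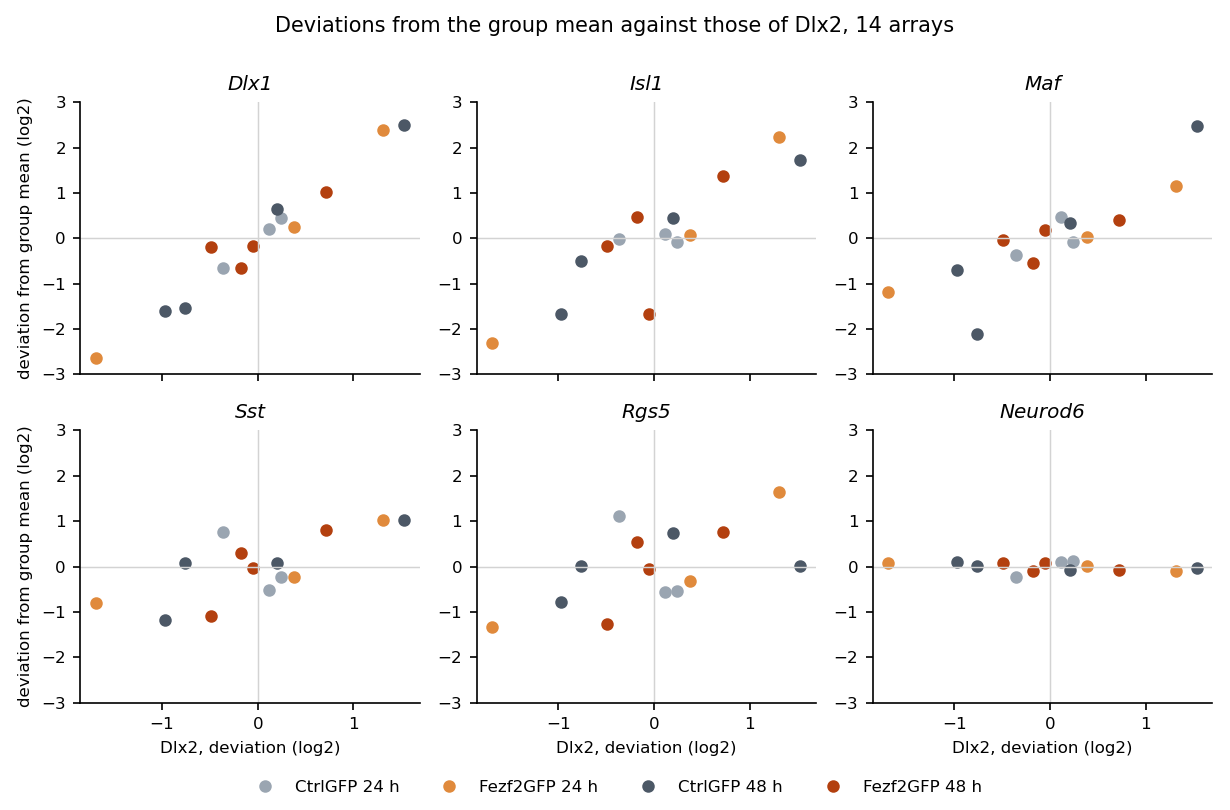
Deviation from the group mean (log2) of Dlx1, Isl1, Maf, Sst, Rgs5 and Neurod6 against that of Dlx2, with 1 point per array, 14 arrays, coloured by group. Dlx1 follows Dlx2 at an r of 0.982, Isl1 at 0.881 and Rgs5 at 0.575, while Neurod6 stays flat at -0.322.

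By the rule of the 3 tested genes with the most similar deviations over 14 arrays, Dlx1 and Dlx5 were nearest to Dlx2 together with the noncoding Dlx6os1 (r = 0.919). Dlx1as, annotated as an antisense RNA of the Dlx1 locus, was nearest to Gad1 (0.941), followed by the glutamate receptor subunit gene Gria1 (0.937) and Stmn4, a stathmin (0.905). For Dlx5 the nearest were Zcchc12 (0.954), Dlx6os1 (0.934) and the glycine receptor subunit gene Glra2 (0.926). Lhx6 was nearest to Ptp4a3 (0.937), Stmn4 (0.911) and Tac1, which encodes the substance P precursor (0.906). Slc32a1 was nearest to Grm7 (0.965), Nefl (0.927) and Cplx1 (0.922), and Gad2 to Zfhx3 (0.908), Pacsin1 (0.884) and Fam189a1 (0.883). Grm7 and Nefl each exceeded the dim level on 1 array of CtrlGFP 48 h, 1 of Fezf2GFP 24 h and 2 of Fezf2GFP 48 h. Fam189a1 exceeded it on 1 array of Fezf2GFP 24 h and 2 of Fezf2GFP 48 h. The other values of these genes lay below that level. Each is a ranking over all tested genes and carries no test.

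The lists of related genes give the surroundings of these members. Among genes of GABA synthesis, release, uptake and breakdown (5 tested of 8, with Gad1, Gad2 and Slc32a1 among them), 0 passed for the vector at either time. The succinic semialdehyde dehydrogenase gene Aldh5a1 stood at 0.87 at 24 h and 0.87 at 48 h (adjusted p = 0.472 and 0.177 in limma), and the GABA transaminase gene Abat at 0.49 and 1.11. Of 7 tested subpallial progenitor factors 0 passed for the vector at either time, with a median log2 difference of 1.01 at 24 h and 0.39 at 48 h. In CtrlGFP cells 2 of these 7 rose from 24 h to 48 h, where 12.6% of all genes passed in either direction, Olig1 by at least 18.3-fold (adjusted p = 0.00123 in limma) and Olig2 by 1.93 (SE 0.43, adjusted p = 0.00911 in limma), both factors of the oligodendrocyte lineage as well. Of 10 tested postmitotic GABAergic factors 0 passed for the vector. In CtrlGFP cells 2 of the 10 passed between the times: Zeb2 rose by 1.18 and Sox6 fell by 1.47 (adjusted p = 0.0314 and 0.00151 in limma).

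Some genes of interneuron subtypes and of tangential migration passed for the vector. Shares of all genes that passed were 1.06% at 24 h, 3.13% at 48 h and 4.79% over both times. Of 9 tested interneuron subtype markers 0 passed at 24 h and 1 at 48 h, Calb2, which encodes the calcium-binding protein calretinin, at least 10.8-fold higher with Fezf2GFP (adjusted p = 0.000332 in limma). Calb2 lay below the dim level on all CtrlGFP arrays and on the Fezf2GFP arrays of 24 h, and read 5.64 to 8.52 with Fezf2GFP at 48 h. Over both times 3 of the 9 passed, Calb2, Calb1 (1.53, adjusted p = 0.0437 in limma) and Reln (2.03, adjusted p = 0.0267 in limma), which encodes the secreted protein reelin. Reln and Calb2 are also expressed by Cajal-Retzius cells. Of 17 tested receptors and ligands of migration 2 passed at 24 h, the Slit receptor gene Robo1 (2.06) and Gfra1, a GDNF receptor gene (3.16), and 2 at 48 h, Robo1 (1.03) and the semaphorin receptor gene Nrp2 (4.07), all of them higher with Fezf2GFP. Over both times 4 of the 17 passed, all higher: Nrp2 (3.10), Gfra1 (2.01), Robo1 (1.54) and Ackr3 (1.20, adjusted p = 0.0385 in limma), which encodes a scavenger receptor for the chemokine Cxcl12. Of 13 tested striatal and olfactory genes 0 passed at either time, and over both times Foxp2 was higher by 1.12 and Pbx3 fell by 1.19 with Fezf2GFP (adjusted p = 0.0105 and 0.0287 in limma). Of 12 tested genes of the pallial glutamatergic lineage 0 passed at 24 h and 1 at 48 h, Emx1 at 1.06 (adjusted p = 0.0404 in limma), which also passed over both times at 0.77. Between the times, where 12.6% of all genes passed with CtrlGFP and 12.1% with Fezf2GFP, the striatal and olfactory list had 1 gene pass with each vector, Gucy1a1 with CtrlGFP and Penk with Fezf2GFP, both higher at 48 h. The interneuron list had Nos1 and Id2 higher with CtrlGFP, and Calb2 and Nos1 with Fezf2GFP. The migration list had Robo1 and Nrp1 higher with each vector, and Cxcl12 and Gfra1 lower with Fezf2GFP. In the pallial list Neurog1 and Neurog2 fell with each vector, Eomes fell with CtrlGFP, and Neurod2 rose with Fezf2GFP. In the list of postmitotic factors Sox6 fell with Fezf2GFP. Whether the vector's effect on these genes differs from that on the members was not tested.

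Summed log2 levels of marker lists were read beside these results. Of 10 lists, the 9 members summed to 31.6 to 32.4 on the CtrlGFP arrays and 31.6 to 51.8 on the Fezf2GFP arrays at 24 h, and to 33.9 to 49.3 and 42.1 to 49.3 at 48 h. The Cajal-Retzius list (3 of 7 tested, with Trp73, Lhx1 and Lhx5 below the dim level on every array) summed to 29.0 to 29.8 with CtrlGFP and 33.4 to 35.5 with Fezf2GFP at 24 h, without overlap. At 48 h that list summed to 25.7 to 31.464 with CtrlGFP and 31.553 to 32.4 with Fezf2GFP, without overlap but with a narrow gap. Among all single genes tested, the vector groups did not overlap for 19.6% at 24 h and 9.07% at 48 h. No such share was computed for sums. Endothelial and pericyte markers (3 of 7 tested, with Pecam1, Cdh5, Kdr and Flt1 below the dim level on every array) summed to 23.1 to 27.6 and 23.0 to 30.9 at 24 h, and to 26.2 to 27.7 and 26.5 to 32.0 at 48 h. Their highest 24 h sum was on Fezf2GFP replicate 1, the array highest for the members. The Cajal-Retzius, oligodendrocyte precursor and radial glia lists also had their highest 24 h sum there. Among the CtrlGFP arrays of 48 h, the endothelial and pericyte sum was highest on replicate 3 (27.7). Replicate 1, highest for the members, stood at 26.5. Oligodendrocyte precursor markers (2 of 5 tested) summed to 16.1 to 18.0 and 15.5 to 20.0 at 24 h, and to 19.9 to 25.1 and 19.0 to 20.8 at 48 h. Red blood cell markers (1 of 6 tested) summed to 17.4 on CtrlGFP 24 h replicate 1 and 13.5 on Fezf2GFP 24 h replicate 3, against 6.57 to 9.31 on the other 12 arrays. Markers of thalamus and choroid plexus (2 of 5 tested) summed to 30.8 on Fezf2GFP 24 h replicate 3, 30.4 on CtrlGFP 48 h replicate 3 and 29.1 on Fezf2GFP 48 h replicate 3, against 22.9 to 25.3 on the other 11 arrays. Microglia and macrophage markers (1 of 7 tested) summed to 19.9 to 22.4 over the 14 arrays. Radial glia markers (9 of 9 tested) summed to 103.1 to 106.055 with CtrlGFP and 106.142 to 107.5 with Fezf2GFP at 24 h, without overlap but with a narrow gap. At 48 h they summed to 92.6 to 99.1 and 97.5 to 104.2. Intermediate progenitor markers (5 of 5 tested) summed to 60.9 to 62.2 and 59.5 to 61.3 at 24 h, and to 52.7 to 56.1 and 51.3 to 55.0 at 48 h. Projection neuron markers (5 of 6 tested) summed to 59.7 to 62.9 and 62.6 to 63.7 at 24 h, and to 62.4 to 64.0 and 64.3 to 67.1 at 48 h, where the groups did not overlap. The part of these cell types in the members' values was not tested.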

How the data were processed

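RNA of FACS-sorted, electroporated cells was measured on 14 Affymetrix mouse arrays. The deposited values are log2 levels, made with GCRMA per the submitters' processing notes; the sources used here do not give its version, settings or the array's build. GCRMA subtracts background by probe sequence and normalizes between arrays, so values near the dim level carry little signal. Of 45037 probe sets, 34945 had 1 symbol in the platform annotation, 932 several and 9160 none.

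For each gene the probe set with the highest mean was used, and genes above 4 (log2) on at least 3 of 14 arrays were tested (10295, with 7898 set aside). With limma 3.58.1 (lmFit, eBayes) in R 4.3.3, a model with 4 group means was fitted over the 14 arrays, leaving 10 residual degrees of freedom, with Benjamini-Hochberg adjustment over all genes tested. "Passed", "rose" and "fell" refer to an adjusted p under 0.05. "At least" folds are bounds, given where no array of a group exceeded the dim level and the brighter group's mean did. Fitted log2 differences against such a group are the fit's values, not measured folds. The bounds between groups set the brighter mean against the dim level and are not confidence limits. The fit was tested on simulated data with 200 changed genes. Correlations used scipy 1.17.1. The number of arrays limits precision.

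The named genes are the 9 members, list genes called in any comparison, up to 3 others per list by p, and the 3 genes most alike per tested member. The members and lists were chosen with earlier results of these data known. Replicate numbers were not used to pair the arrays in the main fit. Deviations of 19 same-numbered pairs correlated at -0.399 to 0.318, and 5 exceeded 0.1. Those of 54 pairs with other numbers correlated at -0.672 to 0.593, and 23 exceeded 0.1. Whether the numbers mark a litter or a day was not tested. Alternatives covered the dim filter, normalization, probe set choice, samples fitted, eBayes options, array weights, a replicate block and left-out arrays.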

Additional observations from a re-analysis of the deposited data

Results flagged for a closer look

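In groups of 4 arrays, the highest or lowest array was compared with the next by Dixon's ratio, over 122 gene-by-group tests. Chance alone would flag about 1 in 20 groups, and 8 values of the 122 tests stood apart, which is close to that rate. Among the members these were Gad1 on Fezf2GFP 48 h replicate 3, at 9.55 against 8.49 to 8.62 on the other arrays, and Slc32a1 on CtrlGFP 48 h replicate 1, at 5.70 against 2.98 to 3.24. Both are the arrays on which most members were highest in their group. Among related genes, the striatal gene Gucy1a1 read 9.93 and the neuronal factor Neurod1 13.96 on Fezf2GFP 48 h replicate 4. The opioid precursor gene Penk read 4.55 on CtrlGFP 48 h replicate 4. Of the genes most like Gad2, Pacsin1 read 5.61 on CtrlGFP 48 h replicate 4 and 9.10 on Fezf2GFP 48 h replicate 3. Of those most like Slc32a1, Grm7 read 4.53 on CtrlGFP 48 h replicate 1. The groups of 3 arrays at 24 h are too small for this comparison.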

How the results depend on the processing

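For the vector, 0 of the 9 members were called at 24 h and at 48 h under all 25 alternatives. The mean of both times had 0 to 2 members called over the fits without 1 array, and the difference of the effects had 0 under all. For 48 h against 24 h in CtrlGFP, 0 to 1 were called without 1 array, and 1 (Gad1) with array weights and with the replicate block. The paired fit changed no other call of a member. Numbers of genes called without 1 array ranged from 50 to 165 at 24 h, 188 to 373 at 48 h, 290 to 505 for the mean, 0 to 12 for the difference of effects, and 643 to 1433 for time in Fezf2GFP. Fitting only the groups compared gave 63 genes at 24 h, 168 at 48 h and 797 for time in CtrlGFP. Array weights, whose estimation did not fully converge, gave 2030, 550, 1316, 240, 3077 and 3133 genes in the 6 comparisons. For the difference of effects a dim level of 6 gave 4 genes, every probe set 16, and the replicate block 0. The causes were not tested.

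Directions turned in these cases. Dlx5 at 48 h was 0.0338 with quantile normalization and 0.0110 with median centring, and Gad2 at 24 h was -0.00156 with array weights. For the difference of effects Gad2 was -0.0201 with median centring, and with array weights Slc32a1 was 0.0740, Dlx2 0.21 and Lhx6 0.71. Without 1 array, Gad2 ranged from -0.0473 to 0.48 at 24 h and from -0.0460 to 0.45 at 48 h, and Dlx5 from -0.16 to 0.21 at 48 h. For the difference of effects the ranges were -0.30 to 0.31 (Gad2), -0.61 to 0.48 (Slc32a1), -1.39 to 0.11 (Dlx2) and -0.74 to 0.75 (Lhx6). For time in CtrlGFP, Dlx5 ranged from -0.0046 to 0.36. For time in Fezf2GFP the ranges were -0.10 to 0.51 (Gad2), -0.82 to 1.69 (Dlx1), -0.38 to 1.11 (Dlx2) and -0.16 to 1.33 (Lhx6). Gad1 (0.12 to 2.46) and Slc32a1 (0.31 to 1.40) kept their direction for time in Fezf2GFP. Signal over background limits Gad2, Slc32a1, Dlx5 and the 24 h control levels of Dlx1 and Lhx6, and says nothing of Dlx6 and Gsx2.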
